A study of Homo sapiens with 7 samples.

Results

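The miR-29 family consists of the mature microRNAs miR-29a, miR-29b and miR-29c. Its 3 members were taken by name from the 377 human microRNAs of the TaqMan Human MicroRNA Array A card, and each of them was measured on all 7 cards. MicroRNA was measured in 3 oligometastatic L1-R2 lines, numbered 4T, 3T and 8T, and in 4 polymetastatic L1Mic-R2 lines, numbered 2T, 3T, 7T and 8T. All 7 lines descend from MDA-MB-435-GFP, an established human tumor cell line that carries green fluorescent protein. It was long regarded as a breast carcinoma line and was later shown to match a melanoma line. The L1-R2 lines came from lungs of athymic female mice injected in the tail vein with L1-R1 cells, which were grown from visible lung metastases. The L1Mic-R2 lines came from lungs of such mice that had received L1Mic-R1 cells, which were grown from the part of the same animal's lung without visible metastases. All lines were selected with G418 for the marker, each came from a distinct animal, and each was measured on 1 card without a repeat. Both groups therefore go back to cells of a single animal, and the athymic host lacks mature T cells.

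MicroRNAs are short RNAs that guide a silencing complex to messenger RNAs, mostly by pairing of the seed, bases 2 to 8 from the 5′ end. Members of the miR-29 family are known for lowering messenger RNAs of collagens, elastin, fibrillin and other proteins of the extracellular matrix, and TGF-β is known to lower miR-29 itself in fibrosis. They are also known for acting on the DNA methyltransferases DNMT3A and DNMT3B, and on the antiapoptotic protein MCL1. The family is made from a pair of gene clusters, one with miR-29a and a copy of miR-29b, the other with miR-29c and a further copy of miR-29b.

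The mature sequences are printed because they show how far an assay can tell one member from another. They were taken from RefSeq (GRCh38.p14), in which all 3 members were matched, and the capitals mark the seed.
miR-29a: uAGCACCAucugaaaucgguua
miR-29b: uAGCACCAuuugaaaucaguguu
miR-29c: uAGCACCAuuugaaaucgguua
The seed AGCACCA was the same in all 3, and of the 2370 mature names in the RefSeq table only these 3 held it (0.127%). The first 9 bases were shared by the whole family. With positions counted from 1 at the 5′ end, miR-29a and miR-29c (22 bases each) differed by a single base, C10U. MiR-29b is 23 bases long, and over the first 22 it differed from miR-29c by G18A, U21G and A22U, and from miR-29a by these and C10U. The last 6 bases were CGGUUA in both miR-29a and miR-29c and AGUGUU in miR-29b. The end of miR-29b is known as an element that directs it to the nucleus. In a stem-loop assay the primer for reverse transcription binds the 3′ end of the microRNA, which is the same in miR-29a and miR-29c. How much the assays of these members read each other was not tested. The names of the assays carry no arm, and the older names without an arm belong to the 3p products printed here.

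The hairpins from which the members are cut are printed to show that miR-29b has more than one source. The capitals mark the mature sequence in each.
MIR29A: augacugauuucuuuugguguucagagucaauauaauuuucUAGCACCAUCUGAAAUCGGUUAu
MIR29B1: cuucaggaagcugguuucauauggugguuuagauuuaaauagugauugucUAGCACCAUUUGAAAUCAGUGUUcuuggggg
MIR29C: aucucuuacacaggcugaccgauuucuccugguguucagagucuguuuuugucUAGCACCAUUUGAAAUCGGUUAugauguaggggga
MIR29B2: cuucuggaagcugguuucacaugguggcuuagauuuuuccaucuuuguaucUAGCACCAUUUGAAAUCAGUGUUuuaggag
MIR29A lies at chr7:130876747-130876810 and MIR29B1 at chr7:130877459-130877539 (GRCh38.p14), both on the minus strand with 648 bases between them. MIR29C lies at chr1:207801852-207801939 and MIR29B2 at chr1:207802443-207802523, also on the minus strand, with 503 bases between them. The RefSeq table places the chromosome 1 pair inside the long noncoding RNA gene MIR29B2CHG (chr1:207801518-207822703), without saying whether in an exon or an intron. The hairpins MIR29B1 and MIR29B2 differ outside the mature sequence and give the same miR-29b, so the miR-29b assay read the sum of both clusters. The miR-29a assay was directed at the cluster of chromosome 7 and the miR-29c assay at that of chromosome 1.

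The measurement was the threshold cycle (Ct), the number of PCR cycles after which the signal of a well passes a fixed level. A Ct lower by 1 cycle stands for 2-fold more RNA if the product doubles in each cycle. Raw Ct is the value as deposited, and normalized Ct is the value after quantile normalization, which gives every card the same distribution of Ct. A microRNA was called detected when its raw Ct was below 38. Each of the 3 members was detected in all 7 lines, as were 135 of the 377 microRNAs. The number of detected microRNAs ran from 172 to 184 in the L1-R2 lines and from 160 to 172 in the L1Mic-R2 lines. L1-R2 line 4T had the most detected microRNAs and the lowest raw Ct of RNU44 (23.67), RNU48 (18.81) and U6 (15.97), the small RNAs that serve as controls on the card. Card numbers ran from 1 to 3 in L1-R2 and from 4 to 7 in L1Mic-R2, so card order and group cannot be told apart. Of the markers of other cells, miR-451 and miR-142-5p (blood) and 4 of the 5 fibroblast and smooth muscle microRNAs (miR-143, miR-145, miR-199a-5p and miR-214) were Undetermined in all 7 lines. The other blood microRNAs on the card were detected in some lines, miR-150 in 5, miR-223 in 4 and miR-142-3p in 2. MiR-150 had a log2 fold change of -3.35 (limma adjusted p = 0.220), and miR-223 one of 3.07 with overlap (limma adjusted p = 0.245). The groups did not overlap in normalized miR-150, as held in that direction for 10.5% of the microRNAs tested. Of the 7 epithelial microRNAs, between 2 and 5 were detected in a line, and miR-205 was Undetermined in all. The melanocyte microRNA miR-204 was detected in all 7 lines (raw Ct from 25.79 to 26.92) and miR-211 in 5. Raw Ct of miR-211 ran from 27.49 to 30.56 in L1-R2 and from 29.00 to 40 in L1Mic-R2. Raw Ct of miR-204 ran from 25.79 to 26.01 in L1-R2 and from 26.31 to 26.92 in L1Mic-R2, without overlap, as held in that direction for 13.8% of the microRNAs tested. The log2 fold change was -6.57 for miR-211 (limma adjusted p = 0.267) and -0.59 for miR-204 (limma adjusted p = 0.208), both with overlap in normalized Ct. Summed over each list as log2 of 2 to the power of 40 minus normalized Ct, with Undetermined wells left out, the melanocyte microRNAs ran from 14.00 to 14.38 in L1-R2 and from 13.12 to 14.01 in L1Mic-R2, and the epithelial ones from 7.09 to 10.40 and from 6.20 to 8.38. In the lines with any blood microRNA, these ran from 5.30 to 6.48 and from 4.75 to 5.40. The endothelial miR-126 ran from 4.75 to 7.26 and from 8.13 to 11.22, with a log2 fold change of 3.44 (limma adjusted p = 0.104). The part of all these markers in the results on the miR-29 members was not tested.

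In raw Ct all 3 members had a higher mean in the polymetastatic L1Mic-R2 lines, by between 0.41 and 0.56 cycles, which stands for less RNA before any normalization. Over all 181 microRNAs tested, the median log2 fold change in raw Ct was -0.25, and relative to the mean of RNU44 and RNU48 all 3 members turned positive (0.24 to 0.39). MiR-29c was the member with every L1-R2 line below every L1Mic-R2 line, as held for 13.8% of all microRNAs tested. None of the 3 members passed the limma test after adjustment over all microRNAs, which 4.97% of the microRNAs did. The difference between miR-29a and miR-29c on a card moved by 0.02 cycles between the groups, with an interval of -0.61 to 0.69. In these bulk samples, fewer cells with a microRNA and less of it in each cell cannot be told apart.

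MiR-29a, the member made from chromosome 7 alone, had the lowest Ct of the family. Its raw Ct in the L1-R2 lines was 21.24 in line 4T, 22.10 in line 3T and 21.76 in line 8T. In the L1Mic-R2 lines it was 22.20 in line 2T, 22.05 in line 3T, 22.36 in line 7T and 22.45 in line 8T. L1-R2 line 4T was the lowest of all, and L1-R2 line 3T lay inside the range of the L1Mic-R2 lines, so the groups overlapped. The L1-R2 lines averaged 21.70 ± 0.43 (SD, n = 3), against 22.27 ± 0.18 (SD, n = 4) in L1Mic-R2. The difference of 0.56 cycles, 1.48-fold less RNA in L1Mic-R2, had an interval of -0.05 to 1.21 and missed the threshold in the exact two-sided permutation test (p = 0.0571). The difference in miR-29a came to 0.33 cycles when L1-R2 line 4T was left out. With 3 lines against 4, the smallest p of this test is 0.0286. By raw Ct, miR-29a ranked between 3 and 7 among the 377 microRNAs in the 7 lines. Ranks order assays and not molecules, since the efficiency of each assay is not given.

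MiR-29c, the member made from chromosome 1 alone, was next in order. Its raw Ct in the L1-R2 lines was 24.92 in line 4T, 25.70 in line 3T and 25.63 in line 8T. In the L1Mic-R2 lines it was 25.98 in line 2T, 26.02 in line 3T, 25.77 in line 7T and 26.10 in line 8T. Every L1-R2 line was below every L1Mic-R2 line, but the closest pair, line 3T of L1-R2 and line 7T of L1Mic-R2, lay nearer to each other than the SD of either group. The means were 25.42 ± 0.43 (SD, n = 3) and 25.97 ± 0.14 (SD, n = 4), a difference of 0.55 cycles with an interval of 0.07 to 1.17 (exact two-sided permutation test, p = 0.0286). This stands for 1.46-fold less RNA in L1Mic-R2. Of the 181 microRNAs tested, 25 (13.8%) were likewise higher in raw Ct in every L1Mic-R2 line than in any L1-R2 line. Without L1-R2 line 4T the difference in miR-29c was 0.30 cycles. MiR-29c ranked 23 by raw Ct in all 3 L1-R2 lines and between 26 and 29 in the L1Mic-R2 lines.

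MiR-29b, the product of both clusters, had the highest Ct of the family. Its raw Ct in the L1-R2 lines was 31.10 in line 4T, 31.48 in line 3T and 31.10 in line 8T. In the L1Mic-R2 lines it was 31.21 in line 2T, 31.44 in line 3T, 31.94 in line 7T and 31.95 in line 8T. Lines 7T and 8T of L1Mic-R2 were above all others, while lines 2T and 3T lay inside the range of L1-R2. The means were 31.22 ± 0.22 (SD, n = 3) and 31.64 ± 0.37 (SD, n = 4). The difference of 0.41 cycles had an interval of -0.58 to 1.15 and missed the threshold in the exact two-sided permutation test (p = 0.171). By rank miR-29b lay between 89 and 97 among the 377 microRNAs.

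**Figure D1:**
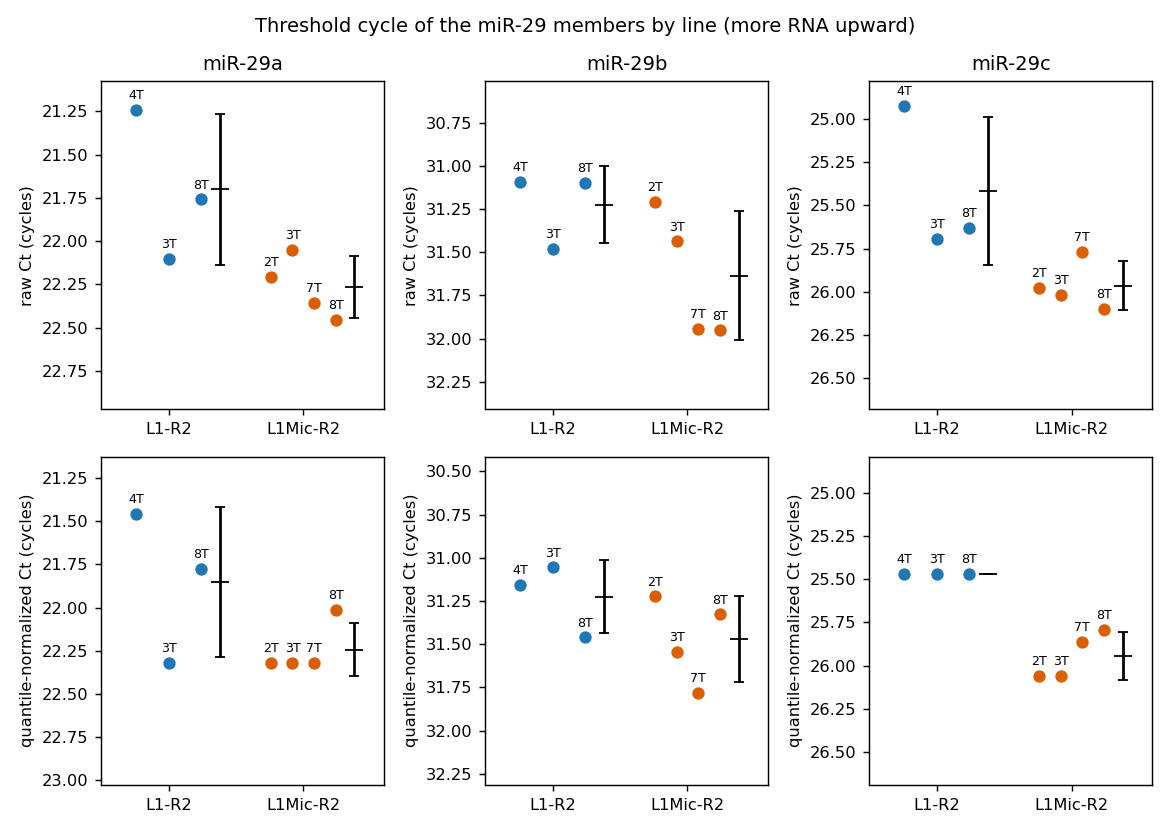
Ct in cycles of miR-29a, miR-29b and miR-29c, raw in the upper panels and quantile normalized in the lower ones. Each point is a line with its number, the bars are the group mean ± SD (n = 3 L1-R2, n = 4 L1Mic-R2), and the axis runs downward so that more RNA is at the top. MiR-29c is the member without overlap of the groups, on both scales, and its 3 L1-R2 lines share 1 normalized value, 25.47.

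Quantile normalization replaced each Ct by the mean Ct of its rank over the 7 cards. It left miR-29c at 25.47 in all 3 L1-R2 lines, since its rank was the same in each, so the SD of that group was 0. In the L1Mic-R2 lines the normalized Ct of miR-29c was 26.06 in lines 2T and 3T, 25.86 in line 7T and 25.79 in line 8T, and the groups again did not overlap, as held in the same direction for 10.5% of the microRNAs tested. MiR-29a had a normalized Ct of 21.46, 22.32 and 21.78 in lines 4T, 3T and 8T of L1-R2. It had 22.32 in lines 2T, 3T and 7T of L1Mic-R2 and 22.02 in line 8T, so L1-R2 line 3T fell level with the 3 highest L1Mic-R2 lines. MiR-29b had 31.16, 31.06 and 31.46 in lines 4T, 3T and 8T of L1-R2 and 31.22, 31.54, 31.78 and 31.33 in lines 2T, 3T, 7T and 8T of L1Mic-R2, with overlap.

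Groups were compared on this scale with limma over the 181 microRNAs that were below Ct 38 in 3 or more lines. A negative log2 fold change stands for less RNA in L1Mic-R2. The log2 fold change was -0.48 (standard error 0.14, 95% interval -0.82 to -0.13) for miR-29c, with a limma p of 0.0150 and an adjusted p of 0.113. It was -0.39 (standard error 0.24, 95% interval -0.97 to 0.19, limma adjusted p = 0.425) for miR-29a and -0.25 (standard error 0.20, 95% interval -0.74 to 0.25, limma adjusted p = 0.566) for miR-29b. None of the 3 members was at an adjusted p under 0.05, against 9 of the 181 microRNAs (4.97%). At an unadjusted p under 0.05 miR-29c was lower in L1Mic-R2, as were 18 of the 181 (9.94%), and 23 microRNAs had a smaller p. The median log2 fold change of all 181 was 0.06. The adjusted limma p of miR-29c was 0.0304 when Ct was capped at 35, and 0.0472 with a trend and a robust fit. Leaving out a single line moved the value by over 1.5 times for miR-29a, to -0.20 without L1-R2 line 4T and to -0.71 without L1-R2 line 3T, and for miR-29b, to -0.14 without L1Mic-R2 line 7T.

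**Figure D2:**
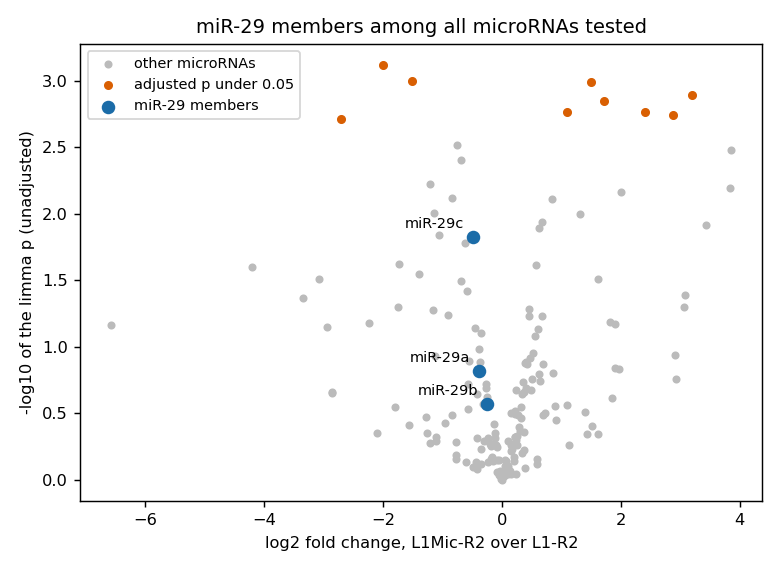
Log2 fold change (L1Mic-R2 over L1-R2, quantile-normalized Ct) against -log10 of the unadjusted limma p for the 181 microRNAs tested. Orange points are the 9 microRNAs at an adjusted p under 0.05 and blue points the miR-29 members, which all lie left of 0 (-0.48, -0.39 and -0.25) and among microRNAs with small changes.

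The sign of the difference depended on the RNA used as a reference. Relative to U6, miR-29a was at 5.27, 5.51 and 5.37 cycles in lines 4T, 3T and 8T of L1-R2 and at 5.84, 5.83, 6.21 and 5.68 in lines 2T, 3T, 7T and 8T of L1Mic-R2. Relative to U6, miR-29c was at 8.95, 9.10 and 9.24 in the same L1-R2 lines and at 9.61, 9.80, 9.62 and 9.33 in the same L1Mic-R2 lines. Neither member overlapped between the groups on this scale, where 17.1% of all microRNAs tested were likewise without overlap and lower in L1Mic-R2, and the median log2 fold change of all 181 was -0.19. The log2 fold changes were -0.51 for miR-29a and -0.49 for miR-29c (limma adjusted p = 0.173 for each). MiR-29b overlapped relative to U6, with -0.35 (limma adjusted p = 0.483). Relative to the mean of RNU44 and RNU48 all 3 members turned positive, with 0.24 for miR-29a, 0.39 for miR-29b and 0.25 for miR-29c. On that scale the median of all 181 microRNAs was 0.56, and with raw Ct it was -0.25. Taken from that median, the members were at -0.32 (miR-29a), -0.16 (miR-29b) and -0.30 (miR-29c) on both scales, since subtracting a reference moves all microRNAs by the same amount. RNU44 and RNU48 had a higher mean raw Ct in L1Mic-R2 by 0.88 and 0.72 cycles and U6 by 0.06, and L1-R2 line 4T was the lowest in all of them. Their part in the result was not tested.

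**Figure D3:**
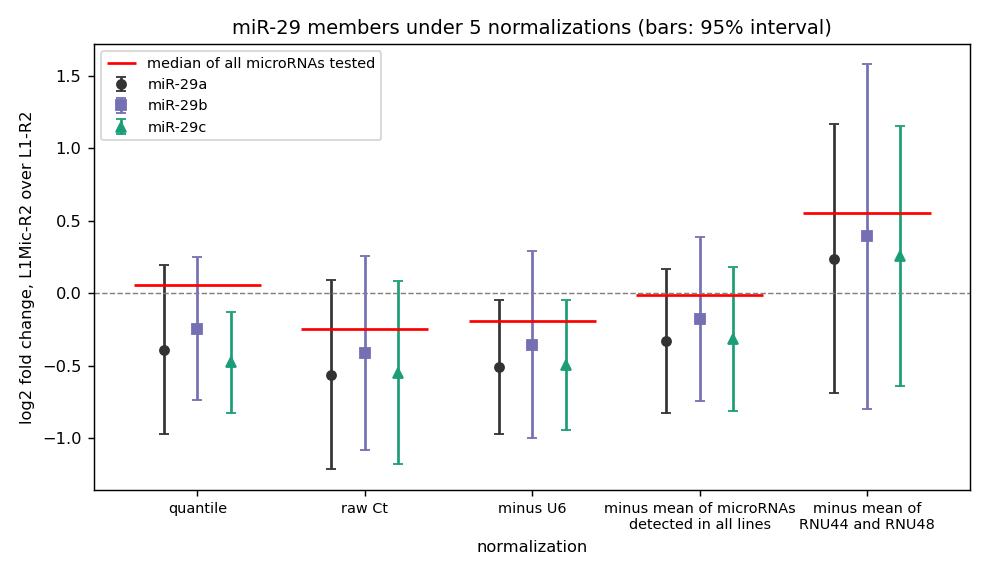
Log2 fold change (L1Mic-R2 over L1-R2) of miR-29a, miR-29b and miR-29c under 5 normalizations, with 95% intervals from limma, and the median of the 181 microRNAs tested as a red line. The members are below 0 under 4 normalizations and above 0 with the mean of RNU44 and RNU48 (0.24 to 0.39), and below the median under all 5.

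Members were then compared with each other on the same card, as a difference of raw Ct, which no normalization by a single number can alter. MiR-29a minus miR-29c was -3.68, -3.59 and -3.87 cycles in lines 4T, 3T and 8T of L1-R2 and -3.77, -3.97, -3.41 and -3.65 in lines 2T, 3T, 7T and 8T of L1Mic-R2. The L1-R2 lines lay inside the range of the L1Mic-R2 lines. The means were -3.72 ± 0.14 (SD, n = 3) and -3.70 ± 0.23 (SD, n = 4), a difference of 0.02 with an interval of -0.61 to 0.69 (exact two-sided permutation test, p = 0.943). Changes of one member against the other that lie inside this interval were not rejected by the test with 7 lines. The difference between these neighbors in the order of Ct was many times the spread between lines.

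MiR-29a minus miR-29b was -9.85, -9.38 and -9.34 cycles in lines 4T, 3T and 8T of L1-R2 and -9.00, -9.39, -9.59 and -9.50 in lines 2T, 3T, 7T and 8T of L1Mic-R2. Line 4T of L1-R2 and line 2T of L1Mic-R2 were the extremes, and the other 5 lines spanned both groups. The group means differed by 0.15, with an interval of -0.36 to 1.01 (exact two-sided permutation test, p = 0.543). MiR-29b minus miR-29c was 6.17, 5.79 and 5.47 in L1-R2 and 5.23, 5.42, 6.18 and 5.85 in L1Mic-R2, in the same order of lines. Its group means differed by -0.14, with an interval of -1.16 to 1.04 (exact two-sided permutation test, p = 0.714). The groups overlapped in all 3 differences.

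**Figure D4:**
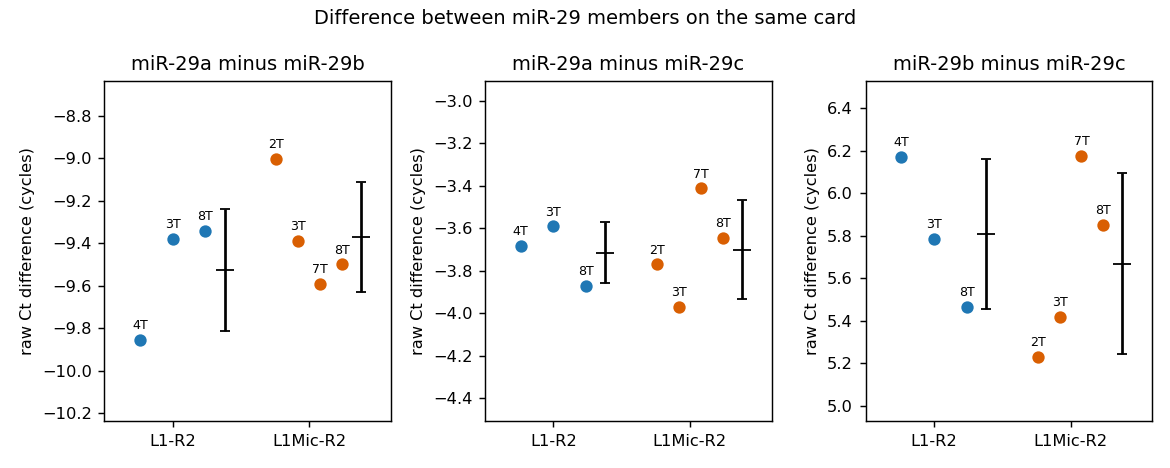
Raw Ct difference in cycles between pairs of miR-29 members on the same card, by line, with the group mean ± SD (n = 3 L1-R2, n = 4 L1Mic-R2). The groups overlap in each panel, and miR-29a minus miR-29c varies least, with an SD over the 7 lines of 0.185.

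Over the 7 lines the SD of the within-card difference was 0.185 for miR-29a minus miR-29c, 0.26 for miR-29a minus miR-29b and 0.371 for miR-29b minus miR-29c. Among the 9045 pairs of the 135 microRNAs detected in all lines, the median SD was 0.721. A smaller SD than that of miR-29a minus miR-29c was found in 0.818% of these pairs. Differences between assays of low Ct varied less, so the same was counted over the 703 pairs of the 38 microRNAs with a mean raw Ct below 27, which include miR-29a and miR-29c. There the median SD was 0.434, and 29 pairs (4.13%) had a smaller SD. The single-base difference between miR-29a and miR-29c printed above, and any reading of one by the assay of the other, would act on this value, and its size was not tested. For miR-29a minus miR-29b, which differ at the primer end, 3.35% of the 9045 pairs had a smaller SD, and for miR-29b minus miR-29c 995 did.

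The spread between lines of 1 group was below the median for each member, in a comparison not matched for Ct. Pooled over both groups, the SD of raw Ct was 0.307 for miR-29a, 0.322 for miR-29b and 0.292 for miR-29c, against a median of 0.437 for the 135 microRNAs detected in all lines. Of these 135, 36 had a smaller SD than miR-29a, 40 than miR-29b and 32 than miR-29c. After quantile normalization the SD was 0.299, 0.234 and 0.106, against a median of 0.382. Then 45 microRNAs had a smaller SD than miR-29a, 32 than miR-29b and 7 than miR-29c. The value of miR-29c includes the SD of 0 that equal ranks gave in the L1-R2 lines.

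Pearson correlations were taken over the 7 lines as a description. The lines share the 7 cards and the order of the groups, and raw Ct also shares the amount of RNA on a card. In raw Ct, miR-29a correlated with miR-29c at r = 0.896 (Spearman 0.75) and with miR-29b at 0.783 (Spearman 0.893), and miR-29b with miR-29c at 0.529 (Spearman 0.714). The median raw correlation with the other 134 microRNAs detected in all lines was 0.382 for miR-29a, 0.336 for miR-29b and 0.497 for miR-29c. Without the 2 lines farthest from the median of miR-29a, its correlation with miR-29c was 0.373, so that it rested on those lines. After quantile normalization the correlations were 0.650 (miR-29a and miR-29c), 0.432 (miR-29b and miR-29c) and 0.267 (miR-29a and miR-29b). Taken on deviations from the group means, they were 0.289, -0.192 and -0.075, in the same order. By the normalized correlation with miR-29a, before the group means were taken out, miR-29c came 13th and miR-29b 41st of 134.

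The 5 microRNAs most like each member were found by Pearson correlation of normalized Ct over the 7 lines. For miR-29c they were miR-425 (r = 0.967), miR-181a (0.951), miR-192 (0.936), miR-30b (0.890) and miR-26a (0.862). All 5 had less RNA in L1Mic-R2 by their mean, and of these miR-181a (log2 fold change -2.0) and miR-192 (-1.51) passed the limma test with an adjusted p of 0.0392 each. Normalized miR-29c was the same in all 3 L1-R2 lines, so these correlations rest on the difference between the groups and on the spread of the 4 L1Mic-R2 lines. Taken on deviations from the group means, they were 0.862, 0.603, 0.480, 0.034 and -0.217, in the same order. Without each line in turn, miR-181a passed in 0 of 7 fits (limma adjusted p from 0.0552 to 0.110). For miR-29a the most alike were miR-362-3p (0.873), miR-509-5p (0.811), miR-182 (0.801), miR-502-3p (0.740) and miR-181a (0.738). Without the 2 lines farthest from the median of miR-29a the values for miR-362-3p and miR-509-5p were 0.449 and -0.638. For miR-29b they were miR-328 (0.886), miR-365 (0.755), miR-25 (0.744), miR-455-5p (0.687) and let-7g (0.680), none of which was among the most alike of the other members.

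MicroRNAs that share a known target class with the family were examined as a pair of lists, each of which includes the 3 members. The list of microRNAs reported to act on chromatin enzymes, among them DNA methyltransferases and EZH2, held 14 microRNAs, of which 11 were tested. None of the 11 was at an adjusted p under 0.05 in limma, against 4.97% of all microRNAs tested. At an unadjusted p under 0.05, 2 were lower, against 9.94% of all, and these were miR-26a and the member miR-29c itself. The log2 fold change was negative for 4 of 11, among them the 3 miR-29 members, against 83 of all 181, and the median was 0.25 against 0.06. MiR-26a, known for acting on EZH2, had a log2 fold change of -0.75 (standard error 0.16, limma adjusted p = 0.0545). Its raw Ct ran from 27.08 to 27.54 in L1-R2 and from 28.24 to 29.00 in L1Mic-R2, without overlap. In that direction, 13.8% of the microRNAs tested were without overlap in raw Ct. MiR-148b, which shares its seed with miR-152 and is known for acting on DNA methyltransferases, had a log2 fold change of 1.82 (standard error 0.81, limma adjusted p = 0.267), with overlap of the groups.

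The list of microRNAs reported to act in extracellular matrix and fibrosis held 17 microRNAs, of which 13 were tested. One rose and 1 fell in L1Mic-R2 at a limma adjusted p under 0.05, against 4.97% of all microRNAs tested in either direction. At an unadjusted p under 0.05, 1 was higher and 4 were lower, the latter against 9.94% of all. The lower ones were miR-192, miR-30c, miR-200b (log2 fold change -1.39, limma adjusted p = 0.176) and the member miR-29c itself. The log2 fold change was negative for 10 of 13, of which 3 are the miR-29 members themselves, against 83 of all 181. The median was -0.39, which is the value of miR-29a itself, against 0.06 for all 181. MiR-18a, a member of the miR-17-92 cluster, rose by 1.72 on the log2 scale (standard error 0.31, limma adjusted p = 0.0392), with a raw Ct of 31.63 to 32.69 in L1-R2 and 30.31 to 30.97 in L1Mic-R2. MiR-192, studied in renal fibrosis, fell by 1.51 (standard error 0.26, limma adjusted p = 0.0392), with a raw Ct of 28.68 to 29.15 in L1-R2 and 30.11 to 31.07 in L1Mic-R2. Without each line in turn, miR-18a passed in 0 of 7 fits (limma adjusted p from 0.0553 to 0.115) and miR-192 in 1 of 7 (limma adjusted p from 0.0431 to 0.110), with their direction kept. MiR-30c, known for acting on connective tissue growth factor, had -0.62 (standard error 0.19, limma adjusted p = 0.120). Its groups did not overlap in normalized Ct, as held in that direction for 10.5% of the microRNAs tested. MiR-21, a microRNA raised in many fibrotic tissues, had -0.30 (standard error 0.42, limma adjusted p = 0.737).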

How the data were processed

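The authors deposited a table for each card with raw threshold cycles (Ct) and an average Ct per assay, in cycles, a log2 scale on which lower values stand for more RNA. The average Ct was used, in which an Undetermined well is 40. Per the paper, RNA was extracted with TRIzol and measured with TaqMan assays. The labels also mention SYBR, and injection into the mammary fat pad where the paper describes tail vein injection. In both points the paper's description was used. The threshold was 0.3.

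Ct of 381 assays was quantile normalized across the 7 cards, as in the paper's methods, with limma 3.58.1 in R 4.3.3. MicroRNAs below Ct 38 in at least 3 lines were tested on 40 minus Ct by the lmFit and eBayes functions of limma, and p-values were adjusted over all 181 (Benjamini-Hochberg). Raw Ct and within-card differences were compared by exact two-sided permutation tests over lines, and intervals (95%) hold the differences this test does not reject. Functions were tested on simulated data. One card was run per line, so the spread holds line and measurement error together, and the number of cards limits the precision.

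The members and the lists were chosen with earlier results of these data known. Named are the members, the control RNAs, the 5 most alike microRNAs of each member and, from each list, those at an adjusted p under 0.05 or the 3 with the smallest p. MiR-30c, miR-200b, miR-21 and the individual markers were named after their values were seen. Groups follow the labels. The file names exchange the numbers of the L1-R2 lines 3T and 4T. Both are of the same group, so no group value is touched, but the pairing by number and every statement on either line follow the labels and would exchange names under the file names. Alternatives were other normalizations, Ct limits, detection filters and fits, omitting each line, and a replicate block.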

Additional observations from a re-analysis of the deposited data

Results flagged for a closer look

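The normalized Ct of miR-29a in the L1Mic-R2 lines was 22.32 in lines 2T, 3T and 7T and 22.02 in line 8T, so that the gap of line 8T to the others made up the whole range of the group (gap over range 1.0). The 3 equal values come from quantile normalization of equal ranks. In raw Ct line 8T was the highest of the group, with 22.45, and the gap over range was 0.386. This was 1 of 9 groups of values examined. Chance marks about 1 in 20 among values without ties, a rate that does not apply here, since 3 equal values fix the gap over range at 1.0.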

How the results depend on the processing

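Of 133 values under alternatives, 104 were counted as unchanged, 12 as weaker, 4 as stronger and 13 as reversed. Unchanged fold changes and differences kept their sign and their side of an adjusted p of 0.05. For raw Ct and within-card differences that p was adjusted over the members or pairs. With a line left out their permutation test cannot reach that threshold, so the side was fixed in advance. Block differences within a card were judged by sign alone, and the number of called microRNAs by size alone. The log2 fold changes of miR-29a, miR-29b and miR-29c were negative in 18 of 19 alternatives each, and turned to 0.24, 0.39 and 0.25 with the mean of RNU44 and RNU48, a scale that moved all microRNAs upward. For miR-29c the adjusted p was 0.0304 with Ct limited to 35 and 0.0472 with trend and robust limma, at the same -0.48, and ran from 0.0304 to 0.702 over all alternatives. Leaving out a line gave -0.71 to -0.20 for miR-29a, -0.37 to -0.14 for miR-29b and -0.52 to -0.43 for miR-29c. In raw Ct the differences were then 0.33 to 0.77, 0.30 to 0.55 and 0.30 to 0.69, alternatives added after the data were seen.

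The 9 microRNAs at an adjusted p under 0.05 became 14 among microRNAs detected in all lines and 21 with trend and robust limma. They became 0 with the mean of RNU44 and RNU48 (37 at an unadjusted limma p under 0.05), without a detection filter (36), with the methods' Student test (35) and with either replicate block (19 and 27), and 0 to 4 without a line. The cause was not tested. MiR-18a, miR-192 and miR-181a kept their direction in all 19 alternatives and passed in 6, 8 and 7 of them, which were run for these microRNAs after the data were seen.

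The numbers 3T and 8T occur in each group. The deviations of these lines from their group means correlated at -0.04 and -0.20, and at 0.02 and -0.20 by file-name numbers. With so few lines per group, these values cannot tell whether same-numbered lines share more than a number. With the replicate block, which leaves 1 residual degree of freedom in place of 5, the log2 fold changes were -0.12, -0.18 and -0.46 for miR-29a, miR-29b and miR-29c, and -0.55, -0.13 and -0.46 by file-name numbers.

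The within-card differences, near 0 in the main analysis, changed sign in places. MiR-29a minus miR-29c was -0.086 in normalized Ct and -0.077 with the replicate block. MiR-29a minus miR-29b was -0.085 and miR-29b minus miR-29c 0.0082 with that block. Without a line they ran from -0.080 to 0.11, from -0.012 to 0.25 and from -0.31 to 0.043. The number of cards, 7, limits all of these values.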
